A study of Mus musculus with 8 samples.

Results

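Expression of 8 genes of the caspase cascade and its adaptors was followed in T-ALL blasts, the malignant immature cells of T cell acute leukaemia, that had been sorted out of the blood of mice. The genes were the caspase genes Casp2, Casp6, Casp8 and Casp9, the adaptor genes Fadd and Apaf1, the caspase-8 regulator gene Cflar and Diablo, whose product counters inhibitors of caspases. They were picked by symbol from a deposited table of 20888 genes, and all 8 had 1 row in it. The study compared groups that both carried Vav-CRE, a recombinase transgene active across the blood lineage. In 4 libraries Kdm6b, a histone demethylase gene, was labelled wild type (control), and in 4 it was labelled homozygous mutant (called mutant-labelled here). The series title ties KDM6B to oncogenic stress from NOTCH1, a receptor often mutated in T-ALL. The sources used here give neither the origin of the leukaemias, nor the age of the mice, nor whether each library came from a mouse of its own. In the sample titles the control labels share a number and differ only by a letter. The mutant-labelled titles share a different number in the same way. What these numbers stand for is not stated. If each stands for a mouse or a leukaemia, the 4 libraries of a group are repeats of it. The n of 4 thus counts libraries, and independent mice may be as few as 1 per group. All p-values below weigh differences against library-to-library spread, part or all of which may be technical.

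Caspases are proteases that carry out programmed cell death. Ligand-bound death receptors such as FAS recruit the adaptor FADD, which gathers caspase-8, and the CFLAR protein (c-FLIP), a relative of caspase-8, competes for this complex. In the mitochondrial arm, released cytochrome c makes APAF1 assemble into the apoptosome, which activates caspase-9, while DIABLO (Smac) leaves the mitochondria and binds the caspase inhibitor XIAP. In the thymus the mitochondrial arm is known for removing immature T cells that fail selection.

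The measure throughout was CPM, reads scaled to the same total in every library, and changes are mutant-labelled minus control on the log2(CPM + 1) scale. Depth was estimated at 18263000 to 22071000 reads for controls, against 14018000 to 18244000 reads for mutant-labelled libraries. Kdm6b was at 323 to 629 CPM in controls and 451 to 656 CPM in mutant-labelled libraries, with overlap (log2 change 0.22 ± 0.21, limma adjusted p = 0.599). A gene-level value can hold reads from exons outside a deleted part, so it checks neither label nor deletion. The 4 Y-linked genes Ddx3y, Uty, Eif2s3y and Kdm5d were at 22.9 CPM or more in every control and at 0.785 CPM or less in every mutant-labelled library, so the label cannot be told apart from sex. All 8 T cell markers on the list, among them Cd3e, Lck and Cd8a, were detected, and their summed level was 10298 to 15023 CPM in controls and 12703 to 14837 CPM in mutant-labelled libraries. Of these 8 markers, 3 were higher in mutant-labelled libraries without overlap and 0 were lower without overlap. Over all tested genes 5.23% were higher without overlap and 7.97% lower. None of the 8 markers had a limma adjusted p below 0.05. Marker sums of other blood cells overlapped between the groups but varied between libraries. They ran from 60.4 to 1255 CPM for erythroid, 93.3 to 280 CPM for myeloid and 71.1 to 317 CPM for NK genes. The groups stood apart in 2 other marker sums. That of 5 genes of dividing cells was 558 to 1587 CPM in controls and 245 to 495 CPM in mutant-labelled libraries. The other list held 6 genes taken as markers of stress during handling, Fos, Jun, Egr1, Hspa1a, Hspa1b and Atf3. Their sum was 56.5 to 86.6 CPM in controls and 119 to 539 CPM in mutant-labelled libraries. Whether handling raised this sum was not tested. In bulk RNA, fewer cells of a type and less RNA per cell cannot be told apart.

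Of the 8 genes, 0 were called between the groups. The call was an adjusted p below 0.05 from limma, with Benjamini-Hochberg adjustment over the 13840 tested genes. At this threshold 3.53% of all tested genes were called (2.32% lower and 1.21% higher), so a set of 8 genes with no call is near the background. Adjusted p ran from 0.189 for Fadd to 0.730 for Casp6. At an unadjusted p below 0.05, Fadd and Apaf1 passed, both lower, against 19.3% of all tested genes in either direction and 11.7% in that one. The estimate lay below 0 for 5 of the genes and above 0 for 3, with a median log2 change of -0.17, and the median over all tested genes was -0.03. With 1 library left out, the median of the 8 ran from -0.21 without mutant-labelled replicate 3 to -0.09 without mutant-labelled replicate 1. Under quantile normalization the median of the 8 was -0.12, and that of all tested genes was 0.007. Every 95% limma interval of the 8 genes lay between -1 and 1, that is within 2-fold on this scale, and the same held for 81.6% of all tested genes. These intervals are not adjusted for the number of genes.

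**Figure D1:**
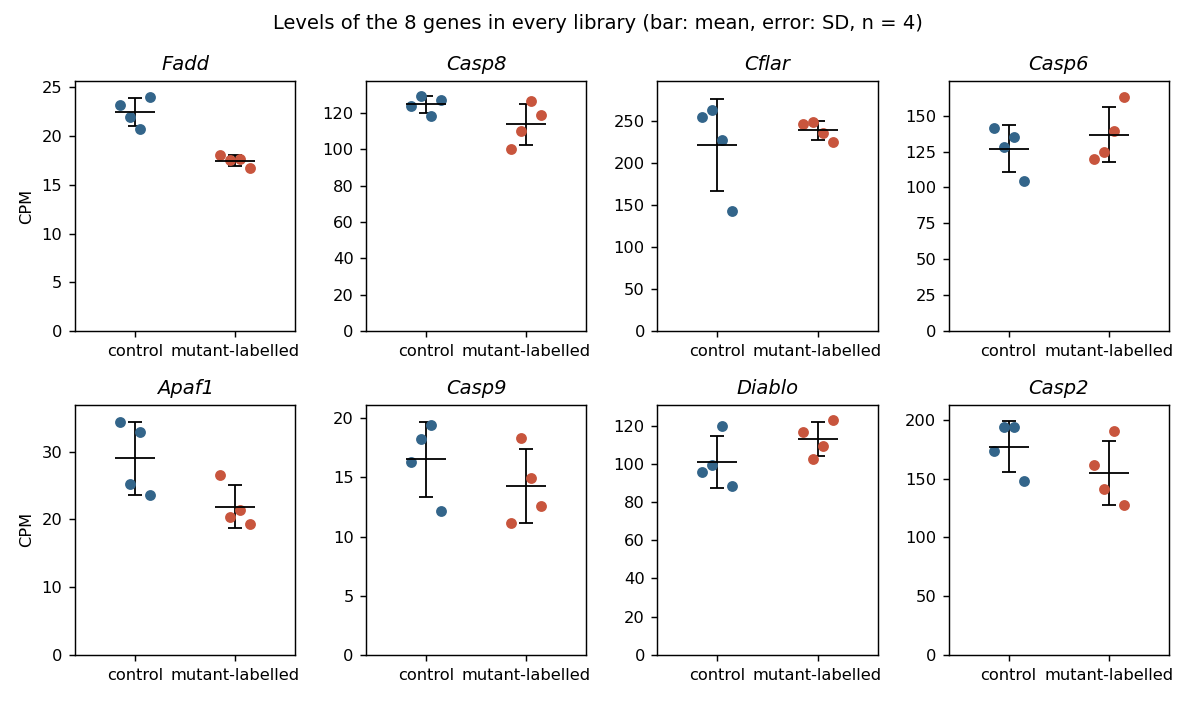
CPM of the 8 genes in each library, with the groups on the x axis, 1 point per library, replicates 1 to 4 from left to right, the mean as a horizontal bar and the SD as the error bar (n = 4 per group). Fadd is the gene whose groups do not overlap, and control replicate 4 is the lowest control point for 6 of the 8 genes.

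In the death receptor arm, Fadd had the lowest p of the 8 genes. It encodes the adaptor that links receptors such as FAS to caspase-8. Fadd was at 23.1, 21.9, 20.7 and 24.0 CPM in control replicates 1 to 4 and at 18.0, 17.5, 17.6 and 16.7 CPM in mutant-labelled replicates 1 to 4. Every mutant-labelled value lay below every control value. Fadd was 1 of 8 genes without overlap, against 13.2% of all tested genes in either direction and 7.97% lower. The group levels were 22.4 ± 1.46 and 17.5 ± 0.562 CPM (SD, n = 4 each), and the log2 change was -0.34 ± 0.13 (SE, 95% interval -0.63 to -0.05, limma adjusted p = 0.189). It was therefore not called. Its residual SD within groups was 0.071 on the log2 scale, against a median of 0.24 for tested genes with a mean of at least 5 CPM. The limma test moves such a small spread towards that of genes of like level. The groups that stood apart in Fadd also stood apart in the sums of the dividing-cell list and of the handling-stress list. The part of these in the Fadd values was not tested.

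Fadd lies on chromosome 7 from 144577318 to 144582463 on the minus strand (mm10). Its exons overlap those of the antisense gene Faddos by 239 bases. The strand setting of the counter is not stated, so reads of the pair cannot be told apart. Faddos was at 0 to 0.576 CPM in the 8 libraries, which sets no limit on its share of the Fadd value. The promoter windows of Fadd and Apaf1 are shown because these had the lowest p of the 8 genes. Each runs from 250 bases before to 50 after the RefSeq start (GRCm38.p6, the assembly of mm10), on the minus strand and 5′ to 3′, at chr7:144582392-144582691 for Fadd and chr10:91082694-91082993 for Apaf1. Capitals mark a match to the motif TTTNNCGC on either strand, which is the core of the binding site of the cell cycle factor E2F.
Fadd: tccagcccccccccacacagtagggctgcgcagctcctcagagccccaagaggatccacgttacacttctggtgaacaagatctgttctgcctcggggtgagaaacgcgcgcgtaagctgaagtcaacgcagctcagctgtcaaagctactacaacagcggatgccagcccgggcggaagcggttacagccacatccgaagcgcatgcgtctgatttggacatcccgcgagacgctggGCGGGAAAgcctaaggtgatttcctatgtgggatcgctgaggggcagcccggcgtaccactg
Apaf1: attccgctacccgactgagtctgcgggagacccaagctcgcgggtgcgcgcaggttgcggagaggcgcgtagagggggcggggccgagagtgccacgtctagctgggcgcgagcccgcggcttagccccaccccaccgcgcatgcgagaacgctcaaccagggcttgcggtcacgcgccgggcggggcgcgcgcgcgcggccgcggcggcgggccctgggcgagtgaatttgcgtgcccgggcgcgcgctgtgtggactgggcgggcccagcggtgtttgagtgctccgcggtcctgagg
The Fadd window held 1 match and the Apaf1 window 0, and 5.17% of all 32851 windows of this length held the motif. Among the 8 genes the other window with a match was that of Casp2. Both windows shown were rich in CpG, with an observed over expected ratio of 0.806 for Fadd and 1.12 for Apaf1, against a median of 0.384 over all windows. Over the 8 windows the ratio ran from 0.38 for Casp8 to 1.14 for Casp9. The Casp8 window, which begins at base 58802252 of chromosome 1, lies around a start inside the gene as annotated in GENCODE, whose first base is 58795374, so it does not describe the outermost start. The binding motif of RBPJ, the DNA-binding partner of NOTCH1 (TGGGAA, both strands), was in the Casp2 window but in 0 of the other 7, against 25.6% of all windows. That of NF-kB (3 G, any 5 bases, 2 C, both strands) was in 7 of the 8 windows, all but that of Casp8, against 50.8% of all windows. The fixed letters of this motif are all G or C. GC content was 42.0% for Casp8, 45.0% for Cflar and 60.3% to 74.7% for the others, against a median of 52.7% over all windows. The part of GC content in these matches was not tested. A match is a description of letters and not a bound site.

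Casp8, the initiator protease of the death receptor arm, was at 124, 129, 118 and 127 CPM in control replicates 1 to 4. In mutant-labelled replicates 1 to 4 it was at 100.1, 110.3, 127 and 119 CPM. The groups overlapped, since mutant-labelled replicates 3 and 4 lay within the control range, while replicates 1 and 2 lay below it. Its levels were 125 ± 4.81 and 114 ± 11.3 CPM, and the log2 change was -0.13 ± 0.11 (limma adjusted p = 0.538, 95% interval -0.37 to 0.10).

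Cflar, which encodes the competitor of caspase-8, was at 255, 263, 228 and 143 CPM in control replicates 1 to 4 and at 247, 249.6, 236 and 225 CPM in mutant-labelled replicates 1 to 4. Control replicate 4 was by far the lowest of the 8 libraries, and the mutant-labelled values lay within or just below the range of the other controls. The log2 change was 0.15 ± 0.18 (limma adjusted p = 0.702), and without control replicate 4 it was -0.05 (adjusted p = 0.782). The sign of the Cflar estimate therefore rested on 1 library. The ratio of Cflar to Casp8 CPM, a description of the balance of inhibitor and protease transcripts, was 2.06, 2.03, 1.92 and 1.12 in control replicates 1 to 4. It was 2.47, 2.26, 1.86 and 1.90 in mutant-labelled replicates 1 to 4, so the groups overlapped also in the ratio. Cflar lies on chromosome 1 from 58711508 to 58758884 and Casp8 from 58795374 to 58847503, both on the plus strand (mm10). Only 36489 bases part these neighbours. The ratio of Fadd to Casp8 overlapped as well, at 0.169 to 0.189 in controls and 0.139 to 0.18 in mutant-labelled libraries.

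In the mitochondrial arm, Apaf1 had the most negative estimate of the 8 genes. It encodes the scaffold of the apoptosome. Apaf1 was at 34.3, 25.2, 32.9 and 23.7 CPM in control replicates 1 to 4 and at 26.5, 20.4, 21.4 and 19.2 CPM in mutant-labelled replicates 1 to 4. Control replicates 1 and 3 were above all other libraries, and mutant-labelled replicate 1 lay above control replicates 2 and 4. The log2 change was -0.38 ± 0.17 (SE, limma adjusted p = 0.245, 95% interval -0.75 to -0.01). Over the alternatives tried, adjusted p ran from 0.0628 with array weights to 0.468 without control replicate 1.

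Casp9, the protease that the apoptosome activates, had the lowest levels in CPM. It was at 16.3, 18.3, 19.4 and 12.2 CPM in control replicates 1 to 4 and at 11.2, 18.3, 14.9 and 12.6 CPM in mutant-labelled replicates 1 to 4. The groups overlapped over nearly their whole range. The log2 change was -0.20 ± 0.20 (limma adjusted p = 0.623, 95% interval -0.64 to 0.24). The ratio of Apaf1 to Casp9 CPM was 1.38 to 2.11 in controls and 1.11 to 2.38 in mutant-labelled libraries. Casp9 shares 94 bases of exon with each of Cela2a and Ctrc on the opposite strand, which were not analysed here.

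Diablo, which encodes the mitochondrial antagonist of XIAP, had the highest estimate of the 8 genes. Its values were 95.5, 99.2, 119.9 and 88.2 CPM in control replicates 1 to 4 and 117, 102, 109 and 123 CPM in mutant-labelled replicates 1 to 4. All mutant-labelled libraries were above 3 of the 4 controls, and control replicate 3 lay within their range. The log2 change was 0.17 ± 0.12 (limma adjusted p = 0.494, 95% interval -0.10 to 0.44). The ratio of Diablo to Xiap CPM was 2.26, 2.58, 2.39 and 2.67 in control replicates 1 to 4 and 2.92, 2.38, 2.73 and 3.80 in mutant-labelled replicates 1 to 4, with overlap through mutant-labelled replicate 2. Exons of Diablo overlap 1326 bases of B3gnt4 on the opposite strand, which was at 0.209 to 0.819 CPM, and 1193 bases of Gm49027 on the same strand, which was at 0.342 to 1.63 CPM. They also overlap 122 bases of AC157931.1 on the opposite strand. The low levels of B3gnt4 and Gm49027 set no limit on their share of the Diablo value.

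The remaining pair of proteases act outside these initiator complexes. Casp2, activated in a complex called the PIDDosome, was at 174, 194, 194 and 148 CPM in control replicates 1 to 4. In mutant-labelled replicates 1 to 4 it was at 161, 142, 190.4 and 127 CPM. Both groups spread widely and overlapped, and the log2 change was -0.20 ± 0.15 (limma adjusted p = 0.491, 95% interval -0.52 to 0.12). Casp6, an executioner caspase that cleaves nuclear lamins, was at 141, 128, 135 and 104 CPM in control replicates 1 to 4. In mutant-labelled replicates 1 to 4 it was at 119.6, 125, 139.6 and 163 CPM. The highest library of the 8 was mutant-labelled replicate 4 and the lowest control replicate 4, with the rest intermixed. The log2 change was 0.10 ± 0.14 (limma adjusted p = 0.730, 95% interval -0.20 to 0.40).

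**Figure D2:**
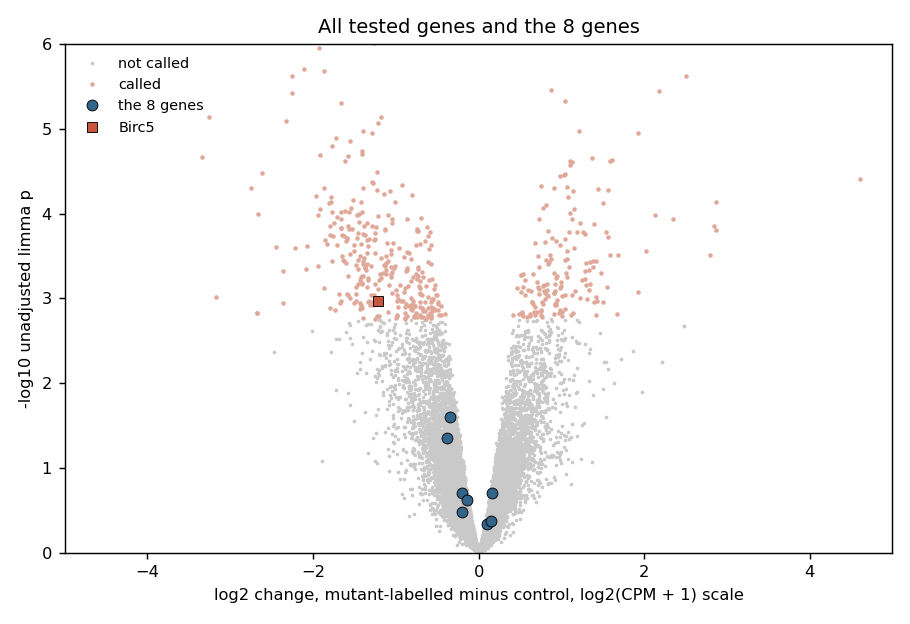
Each point is 1 tested gene, with the log2 change on the x axis and -log10 of the unadjusted limma p on the y axis, where called genes are in light red and 18 genes lie outside the axes. The 8 genes, in blue, all lie below the called genes, between log2 changes of -0.38 and 0.17, and Birc5, in red, lies among the called genes.

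The 8 genes differed in how much they varied between libraries. Residual SD within groups on the log2 scale was lowest for Fadd (0.071) and Casp8 (0.11) and highest for Cflar (0.29) and Casp9 (0.28), with a median of 0.21. Control replicate 4 was the lowest control for 6 of the 8 genes and the highest for 1, Fadd. This library also had the lowest T cell marker sum of the 8 (10298 CPM), the highest NK marker sum (317 CPM) and the highest sum of dividing-cell genes (1587 CPM), and the part of these in its values was not tested. Counting error was small beside this spread for most of the genes. It was not small for Fadd, whose residual SD was 0.071 in log2 units, which cannot be read as a percent. Its fewest estimated reads, 236 in mutant-labelled replicate 4, give a counting error of about 6.5%. The fewest estimated reads behind any value were 179, for Casp9 in mutant-labelled replicate 4, which gives a counting error of about 7.47%. For Casp2, Casp6, Casp8, Cflar and Diablo every value rested on at least 1435 estimated reads.

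Per length of exon, the levels fell into tiers. Casp8 was highest, at 34.6 to 44.7 CPM per kb over the 8 libraries, above every value of the other genes. Casp2 (18.1 to 27.5 CPM per kb), Casp6 (18.7 to 29.2), Cflar (11.3 to 20.8) and Diablo (14.3 to 19.9) formed a second tier, in which neighbouring ranges overlapped. Fadd stood below them at 4.27 to 6.16 CPM per kb. Apaf1 (2.13 to 3.80) and Casp9 (2.15 to 3.74) were lowest and did not differ beyond their spread. Among tested genes with an annotated length, the mean level per kb of Casp8 lay above 88.9% and that of Apaf1 above 31.2%. Lengths are unions of all exons annotated in GENCODE vM21, from 2893 bases for Casp8 to 12669 bases for Cflar, so levels of genes with long rarely used exons are understated.

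**Figure D3:**
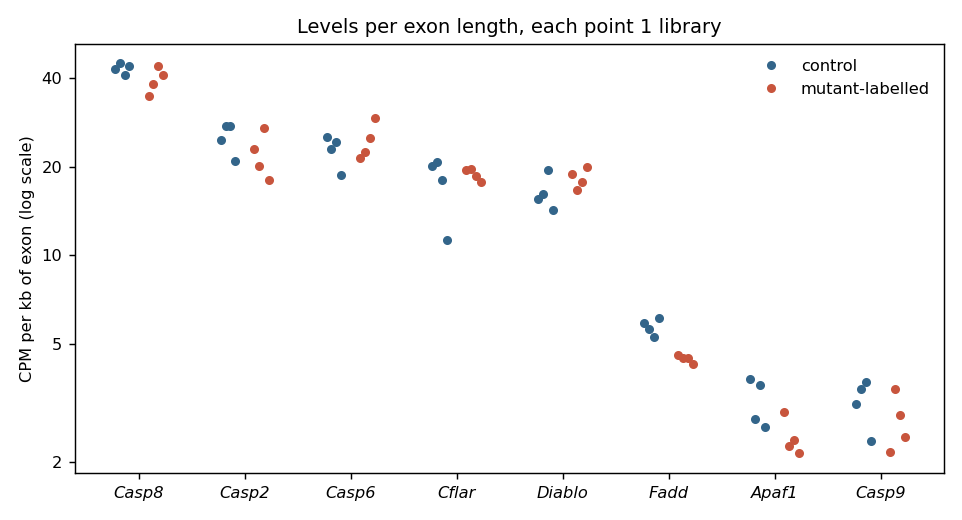
CPM per kb of exon on a log axis for the 8 genes, ordered by control mean, with 1 point per library and group shown by colour. Casp8 lies between 34.6 and 44.7, Fadd between 4.27 and 6.16, and Apaf1 and Casp9 between 2.13 and 3.80 CPM per kb.

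Around these genes, 66 other genes of the pathway were listed in 8 groups, and 51 of them passed the filter on low values. Of these, 1 was called lower and 0 higher, which is 1.96% against 3.53% of all tested genes. The called gene was Birc5, which encodes survivin, an inhibitor of apoptosis family member that also serves in the chromosomal passenger complex of mitosis. Birc5 was at 134, 72.6, 115 and 214 CPM in control replicates 1 to 4 and at 46.4, 40.5, 66.9 and 63.2 CPM in mutant-labelled replicates 1 to 4. No mutant-labelled value reached the lowest control, and the controls spread widely, with replicate 4 highest. Mean Birc5 fell by 1.21 ± 0.28 on the log2 scale, with levels of 134 ± 59.1 and 54.2 ± 12.8 CPM (limma adjusted p = 0.0398). The call did not hold when control replicate 1 or 3 was left out, nor without any single mutant-labelled replicate (adjusted p 0.0509 to 0.129), under quantile normalization (0.0515) and without the mean-variance trend (0.0682). The summed level of 5 genes of dividing cells also stood apart between the groups, and the part of dividing cells in the Birc5 value was not tested.

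Among the other members of the inhibitor of apoptosis list, 7 tested genes were not called. Xiap, whose product binds DIABLO, was at 41.0 ± 7.19 CPM in controls and 38.8 ± 4.54 CPM in mutant-labelled libraries, and Birc2, which encodes a ubiquitin ligase of receptor complexes, at 92.9 ± 14.1 and 106 ± 17.9 CPM. Of the other caspases listed, 2 were tested and 0 called, and Casp12 and Casp14 were not analysed here. The inflammatory caspase genes Casp1 and Casp4 were low, at 1.15 to 9.76 CPM and 0.247 to 3.53 CPM over the 8 libraries, and the groups overlapped in both. Their log2 changes were 0.07 ± 0.48 and 0.16 ± 0.37 (limma adjusted p = 0.959 and 0.853), with wide intervals of -0.97 to 1.11 and -0.65 to 0.97.

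Partners of Casp2 and of the apoptosome were not called either. Pidd1, which encodes the PIDDosome protein that recruits caspase-2, was at 38.4, 30.4, 37.1 and 53.4 CPM in control replicates 1 to 4 and at 25.6, 28.1, 28.4 and 21.4 CPM in mutant-labelled replicates 1 to 4. The groups did not overlap, and the log2 change was -0.58 ± 0.18 (limma adjusted p = 0.0990, or 0.0553 to 0.202 over the alternatives). Cradd, the adaptor between PIDD1 and caspase-2, was at 13.1 ± 1.93 and 14.7 ± 3.06 CPM. Cycs, which encodes cytochrome c, the trigger of the apoptosome, was at 69.7 ± 16.1 and 88.7 ± 16.1 CPM (log2 change 0.35 ± 0.17, limma adjusted p = 0.293), and Aifm1, a mitochondrial oxidoreductase gene, at 33.7 ± 8.85 and 36.8 ± 4.57 CPM.

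**Figure D4:**
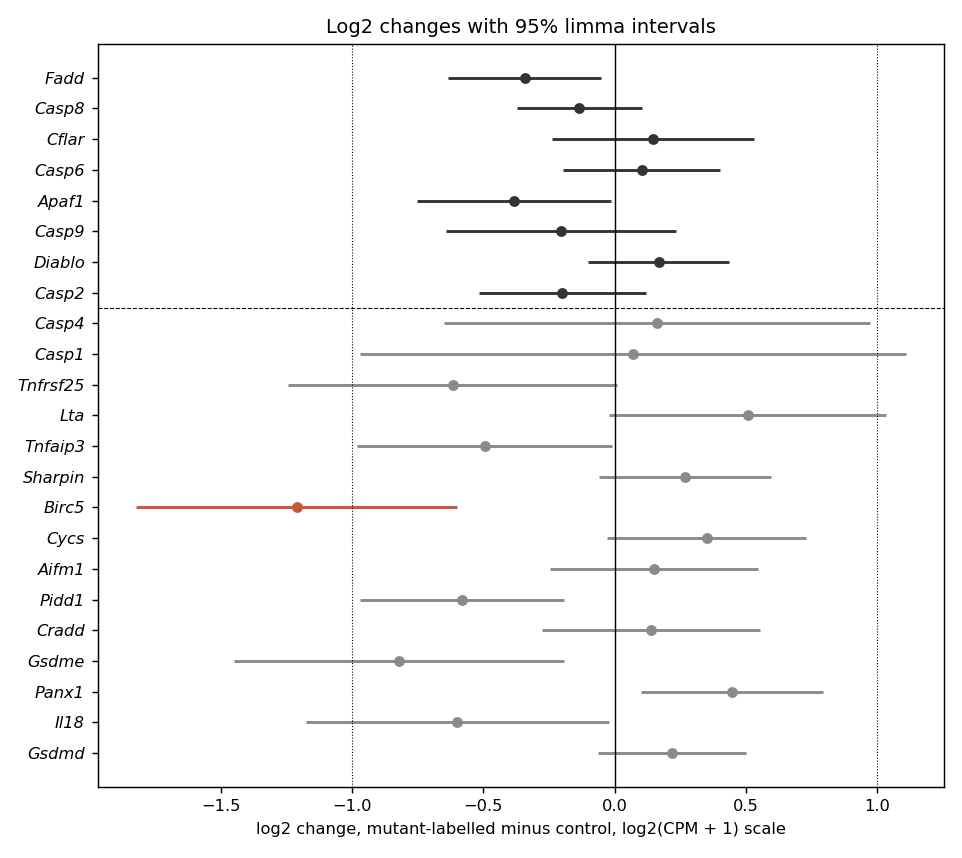
Log2 change (x axis) with its 95% limma interval for the 8 genes above the dashed line and the 15 other named pathway genes below it, where red marks a called gene and dotted lines mark 2-fold. The intervals of the 8 genes lie within the dotted lines, and Birc5 is the called gene at -1.21.

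Upstream of FADD, 0 of 7 tested death receptor and ligand genes were called. Fas was at 59.8 to 168 CPM in controls and 101 to 112 CPM in mutant-labelled libraries, again with control replicate 4 lowest. Tnfrsf25, a death receptor gene of lymphocytes, was at 1.63 ± 0.838 and 0.684 ± 0.414 CPM, and Lta, which encodes the ligand lymphotoxin alpha, at 1.84 ± 0.638 and 2.99 ± 0.647 CPM. Of 12 adaptor and kinase genes of the receptor complexes, 0 were called. Tnfaip3, which encodes the deubiquitinase A20, was at 52.2 ± 10.7 and 37.3 ± 10.7 CPM (log2 change -0.50 ± 0.22, limma adjusted p = 0.250), and Sharpin, a subunit gene of the linear ubiquitin ligase, at 138 ± 29.2 and 164 ± 6.54 CPM.

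Downstream, 0 of 11 caspase substrate and execution genes were called, while 3 passed an unadjusted p below 0.05 as lower and 1 as higher, against 11.7% and 7.62% of all tested genes. Gsdme, which encodes a pore-forming gasdermin, was at 25.6 ± 8.20 and 14.5 ± 6.14 CPM (log2 change -0.82 ± 0.29, limma adjusted p = 0.146). Panx1, which encodes a membrane channel opened by caspase cleavage, was at 12.7 to 15.0 CPM in controls and 16.0 to 22.9 CPM in mutant-labelled libraries without overlap, against 5.23% of all tested genes not overlapping in that direction (log2 change 0.45 ± 0.16, adjusted p = 0.149). In the inflammasome list 4 genes were tested and 0 called. Gsdmd, the pore protein gene of pyroptosis, was at 78.6 ± 9.81 and 91.5 ± 9.32 CPM, and the cytokine gene Il18 at 1.79 ± 0.405 and 0.897 ± 0.603 CPM. In all, 4 of the 51 tested genes had groups without overlap, Birc5, Pidd1 and the DNA repair gene Parp1 lower and Panx1 higher, against 13.2% of all tested genes. The part in these of the marker sums that also stood apart was not tested. Over the 8 lists together the median log2 change was -0.11, with 34 estimates below 0 and 17 above. Over all tested genes the median was -0.03, with 7578 estimates below 0 and 6262 above. Under quantile normalization the median of the lists was -0.04, and that of all tested genes was 0.007. With 1 library left out, the median of the lists ran from -0.12 without mutant-labelled replicate 3 to -0.06 without mutant-labelled replicate 4. Over all tested genes the median was -0.05 and -0.03 in these 2 fits.

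Profiles most like those of the 3 genes with the lowest p were looked up over the 8 libraries. Likeness was the root mean square difference between log2(CPM + 1) values, each gene centred on its own mean. Nearest to Fadd were Tmem268 (0.045) and Osgepl1 (0.052), where Fadd itself spanned 0.50 on this scale. For Apaf1, which spanned 0.80, they were Trappc10 (0.057) and Endou (0.086), and for Casp2, which spanned 0.60, Zmym1 (0.064) and Tmem229b (0.068). None of these 6 genes was called, with limma adjusted p from 0.102 for Endou to 0.684 for Tmem229b. They were picked for values close to those of genes without a call, so this is not a separate result.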

How the data were processed

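The authors deposited a table of CPM for 20888 genes in 8 libraries, with 0.0001 added to each value, which was subtracted here. Each deposited score in their list of 218 genes is a signed fold of control over knockout, per the file headers, and 0 of the 8 genes are in it. Per the submitters' processing notes, STAR 2.7.3a, Partek 10.0.22.0524 and mm10 were used. The sources used here do not name the gene counter, its strand setting or the annotation. Rows were read by symbol: 99.995% of symbols known to GENCODE vM21 lay on the chromosome given there, while the description column named the gene in 0 of the 8 rows and was not used. Depth was estimated from the step between low CPM values. Between 65.5% and 67.1% of values were whole reads within 0.02, which does not allow a count model.

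Genes reaching 1 CPM in 4 or more libraries were tested with limma 3.58.1 (R 4.3.3, lmFit and eBayes with trend) on log2(CPM + 1), two-sided. The fit was tested on simulated data. Errors of levels are SD (n = 4) and of changes SE. The 8 genes, the pathway lists and the tests were chosen with earlier results of these data known. Beside the 8 genes, each list gave its called genes (at most 4) or, lacking any, its 2 genes of lowest p, and Xiap, Birc2, Fas and Parp1 were added after their values were seen. No 2 libraries held identical values (0 pairs). Some items of the pathway lists are not reported here and were left out of the list counts.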

Additional observations from a re-analysis of the deposited data

Results flagged for a closer look

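In 54 groups of 4 libraries (the CPM of each named gene and the 4 ratios), 1 held a library far from the other 3 by Dixon's test. Chance flags about 1 group in 20, so 1 of 54 is no more than chance gives. It was the ratio of Cflar to Casp8 in the controls, where replicate 4 was at 1.12 and the others at 1.92 to 2.06 (gap over range 0.86).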

How the results depend on the processing

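The count of called genes among the 8 was 0 in limma and under all 17 alternatives, with 0 to 2 genes at an unadjusted p below 0.05. The estimates of Casp2, Casp8, Casp9, Apaf1, Fadd and Diablo kept their sign under all 17. Their size was less stable: by over 1.5 times, Casp2 moved to -0.30 and -0.11 without mutant-labelled replicates 3 and 4, and Casp8 to -0.08 without mutant-labelled replicate 1. Casp9 moved to -0.12 under quantile normalization and without control replicate 3, to -0.33 and -0.32 without control replicate 4 and mutant-labelled replicate 2, and to -0.10 without mutant-labelled replicate 1. Diablo moved to 0.08 with array weights and to 0.25 and 0.11 without control replicates 3 and 4. Apaf1 and Fadd stayed within 1.5 times. That of Casp6 was -0.029 with array weights, and that of Cflar ran from -0.052 to 0.24 with 1 library left out, below 0 without control replicate 4. Casp6 was at 0.16 without control replicate 1 or mutant-labelled replicate 1, at 0.01 without control replicate 4 and at 0.02 without mutant-labelled replicate 4, and Cflar at 0.01 with array weights and at 0.22 and 0.24 without control replicates 1 and 2. With 1 library left out, Casp1 ran from -0.32 to 0.44, at -0.29 without control replicate 3 and -0.32 without mutant-labelled replicate 3, and Casp4 from -0.077 to 0.54, below 0 without mutant-labelled replicate 4. With a mean of at least 5 CPM required, Casp1 and Casp4 were not tested. The cause of these sign changes was not tested. Over all genes, 488 calls became 1313 with array weights and 81 to 670 with 1 library left out (control replicate 1 or 3: 96 or 178, mutant-labelled replicate 1, 2 or 4: 150, 81 or 170). In the other pathway lists 1 call, Birc5, became 0 under quantile normalization and without the trend, with 9 and 8 genes at an unadjusted p below 0.05, and 0 to 1 with 1 library left out (0 without control replicate 1 or 3 or any mutant-labelled replicate). Correlations between the deviations of same-numbered libraries were 0.15, 0.07, -0.10 and 0.18 for numbers 1 to 4. Those of differently numbered libraries ran from -0.26 to 0.35. Such weak values cannot decide whether the numbers pair the libraries. With the replicate block, calls numbered 509 over all genes, 0 among the 8 and 1 in the other lists. Depth limits mainly the low genes: 3 reads equal 0.136 to 0.214 CPM.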
